A study of Mus musculus with 20 samples.

Results

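Spleens of mice labelled gluten free were compared with control spleens in the 8 RNA-seq libraries, of 20 in the series, whose sample ID begins with S. The 5 gluten-free libraries carry the IDs S1, S3, S5, S6 and S8, and the 3 control libraries carry the IDs S1, S2 and S6. All mice were 4 weeks old, the tissue was the whole spleen, and total RNA was extracted with a lipid tissue kit and DNase before sequencing on a NovaSeq instrument. The other 12 libraries carry plain-number IDs and enter only the last comparison, as 8 controls and 4 gluten-free libraries. The labels give no strain, sex, diet composition or length of feeding and do not say what the S stands for. They do not state that each library came from its own mouse, so the p-values measure the spread between these libraries, which may in part be technical.

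The spleen filters blood in its red pulp, where macrophages clear old red cells, and starts immune responses in its white pulp, where stromal cells hold B and T cells in separate zones. In young mice it also makes red cells, platelets and neutrophils. A capsule of collagen and smooth muscle covered by mesothelium surrounds it, and the tail of the pancreas and fat lie against its hilum. Gluten, the storage protein of wheat and related cereals, is the antigen of coeliac disease, and diets without it have been studied in mice for effects on immune cells.

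Expression values are CPM (counts per 1000000 counts of the library) scaled by the trimmed mean of M-values (TMM), and differences are log2 of gluten-free over control with the standard error of the fit. Per-library values are always listed in the order S1, S2, S6 for controls and S1, S3, S5, S6, S8 for gluten-free spleens. Library totals ran from 15235671 to 24268237 counts, with a mean of 16959300 ± 1492720 (SD, n = 3) in controls and 20649100 ± 2479760 (SD, n = 5) in gluten-free spleens. The gluten-free totals were higher in an exact two-sided permutation test over 56 assignments (p = 0.0357, adjusted over 5 library measures 0.179). All 8 libraries held the spleen genes Tlx1, Nkx2-5, Cd79a, Cd3e and Spic. Y-linked genes had 0 counts in all 8, and Xist, which is transcribed from the inactive X chromosome, lay between 1091 and 1373 CPM before TMM scaling.

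One library stood apart by the RNA of another organ. Gluten-free S1 held 284091 counts of 36 listed pancreatic acinar genes, 1.52% of its total (95% Wilson interval 1.52 to 1.53), and gluten-free S3 held 977, or 0.00403% (0.00378 to 0.00429). The other 6 libraries held 231 to 433 such counts. Counts of Ctrb1, the precursor of the digestive enzyme chymotrypsin, were 42102 in gluten-free S1, 104 in gluten-free S3 and at most 2 elsewhere. Ins1 and Ins2, the insulin genes of islet beta cells, had 47 and 267 counts in gluten-free S1 and 0 in the other 7, where a count of 0 allows at most 0.124 to 0.197 CPM (3 counts of the library). These intervals and limits cover counting error only.

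**Figure D1:**
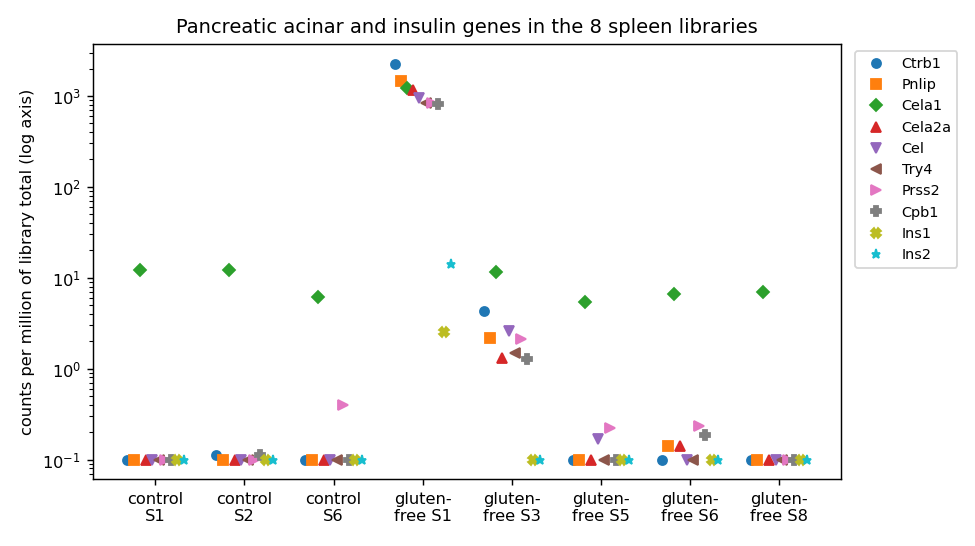
CPM of the library total (log axis, zeros drawn at the level of 0.1) of 8 pancreatic acinar genes and the insulin genes Ins1 and Ins2 in each of the 8 libraries, 1 point per gene. Each of the 10 genes is highest in gluten-free S1, and several acinar genes stand above the remaining 6 libraries in gluten-free S3.

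The acinar genes were high together in that library, so the start regions of 3 of them are shown. Acinar transcription depends on the PTF1 complex, whose binding sites pair an E-box with a second box; the letters searched were CACCTG and TGGGAA, on both strands, in the window from 250 bases before to 50 after the annotated start (RefSeq, GRCm38.p6). CACCTG was present in 63.2% and TGGGAA in 73.7% of the 19 promoters matched to the 21 tested acinar genes, against 20.2% and 25.6% of all 32851 promoters in the table. Both were present in the window, at any spacing, in 7 of the 19 (36.8%) and in 5.27% of all promoters. A match is a stretch of letters and was not tested as a binding site, nor were the motifs required to lie as a pair. The windows of the 3 acinar genes highest in gluten-free S1 among those with both motifs are printed 5′ to 3′ with the motif letters, on either strand, in capitals. Cela2a encodes a pancreatic elastase, Cel the bile salt-activated lipase and Prss2 a trypsinogen. CACCTG and TGGGAA began 218 and 85 bases before the annotated start in Cela2a and 169 and 111 in Prss2. The closest CACCTG and TGGGAA in Cel began at 65 and 87.
Cela2a (chr4:141825956-141826255, minus strand): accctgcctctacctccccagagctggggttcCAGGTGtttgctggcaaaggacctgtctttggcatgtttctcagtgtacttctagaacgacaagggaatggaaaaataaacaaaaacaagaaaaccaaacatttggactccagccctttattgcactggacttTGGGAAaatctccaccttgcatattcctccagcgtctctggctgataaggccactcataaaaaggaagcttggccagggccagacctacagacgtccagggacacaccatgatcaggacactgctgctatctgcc
Cel (chr2:28563354-28563653, minus strand): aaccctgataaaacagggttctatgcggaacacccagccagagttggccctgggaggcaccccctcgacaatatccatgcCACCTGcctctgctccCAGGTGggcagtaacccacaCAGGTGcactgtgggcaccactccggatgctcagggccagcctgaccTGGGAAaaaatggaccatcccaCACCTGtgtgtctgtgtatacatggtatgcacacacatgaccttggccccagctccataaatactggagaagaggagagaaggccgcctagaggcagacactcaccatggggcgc
Prss2 (chr6:41521526-41521825, plus strand): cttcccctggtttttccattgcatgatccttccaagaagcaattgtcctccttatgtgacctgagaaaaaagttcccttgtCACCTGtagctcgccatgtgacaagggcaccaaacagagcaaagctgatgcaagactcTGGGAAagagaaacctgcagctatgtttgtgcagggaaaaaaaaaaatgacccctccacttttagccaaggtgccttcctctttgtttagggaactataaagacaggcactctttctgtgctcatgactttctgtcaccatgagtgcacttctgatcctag

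The libraries also differed in genes of the spleen's cell types and capsule, within each diet as well as between diets. In principal components of log2 CPM over all tested genes, acinar genes included, the first 3 components held 28.6%, 25.3% and 14.7% of the variance. On the third, gluten-free S1 lay at -54.4, followed by gluten-free S3 at -17.9. These were also the libraries with the most acinar counts, and the part of acinar genes in that component was not tested. Spearman correlations were taken across the tested genes outside the acinar list. The most alike pair of libraries was control S6 and gluten-free S6 (0.9902), and the least alike was control S2 and gluten-free S5 (0.9673). The median correlation was 0.9796 over the 3 pairs of controls, 0.9818 over the 10 pairs of gluten-free libraries and 0.9795 over the 15 pairs between diets. For 83.6% of the 18362 tested genes the difference between the diet means was smaller than the range within controls and the range within gluten-free libraries.

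**Figure D2:**
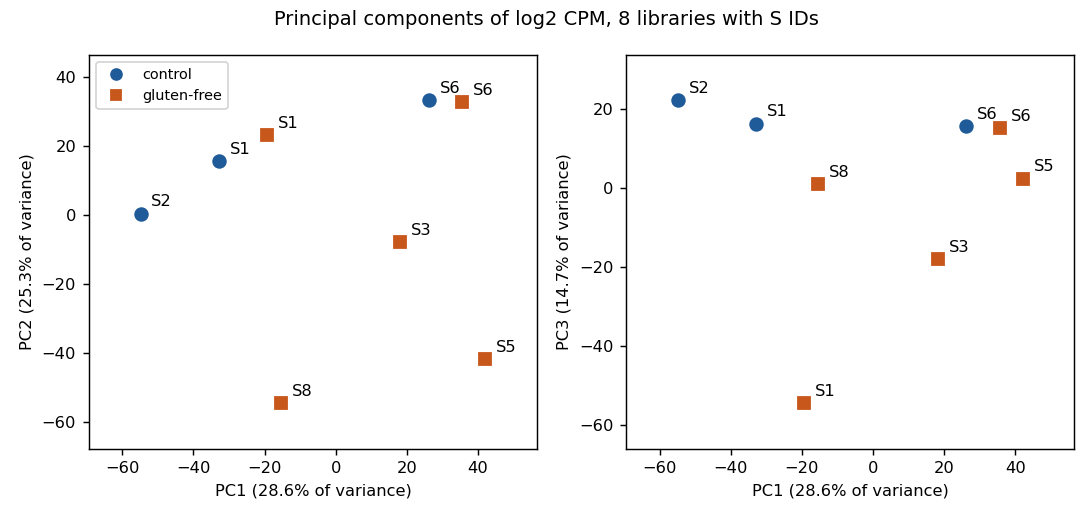
First against second principal component (left) and first against component 3 (right) of log2 CPM over 18362 genes, in component units with the share of variance on each axis; circles are controls and squares gluten-free libraries, labelled by ID. Control S6 and gluten-free S6 lie beside each other, and gluten-free S1 stands alone on the third component.

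Gene lists of the cell types varied in several orders over the libraries. T cell genes such as Lck, the kinase that starts T cell receptor signalling, were highest in control S6 and gluten-free S6, with Lck at 64.7, 52.6 and 211 CPM in the controls and 112, 142, 143, 182 and 86.6 CPM in the gluten-free libraries. Erythroid genes were lowest in the same libraries: Slc4a1, the anion exchanger of red cells, measured 5465, 6778 and 3276 CPM in the controls and 4735, 4815, 4899.5, 3140.1 and 7989.9 CPM in the gluten-free libraries. Mesothelial genes gave a different order, in which all 3 controls and gluten-free S1 and S6 were high: Msln, the surface protein mesothelin, stood at 68.4, 56.9 and 32.0 CPM in the controls and 40.5, 5.72, 5.71, 33.6 and 10.2 CPM in the gluten-free libraries. Neutrophil genes were lowest in gluten-free S5, where Ltf, the iron-binding granule protein lactoferrin, was at 61.7 CPM against 133 to 375 CPM in the other 7. In bulk tissue, fewer cells of a type and less RNA per cell cannot be told apart.

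**Figure D3:**
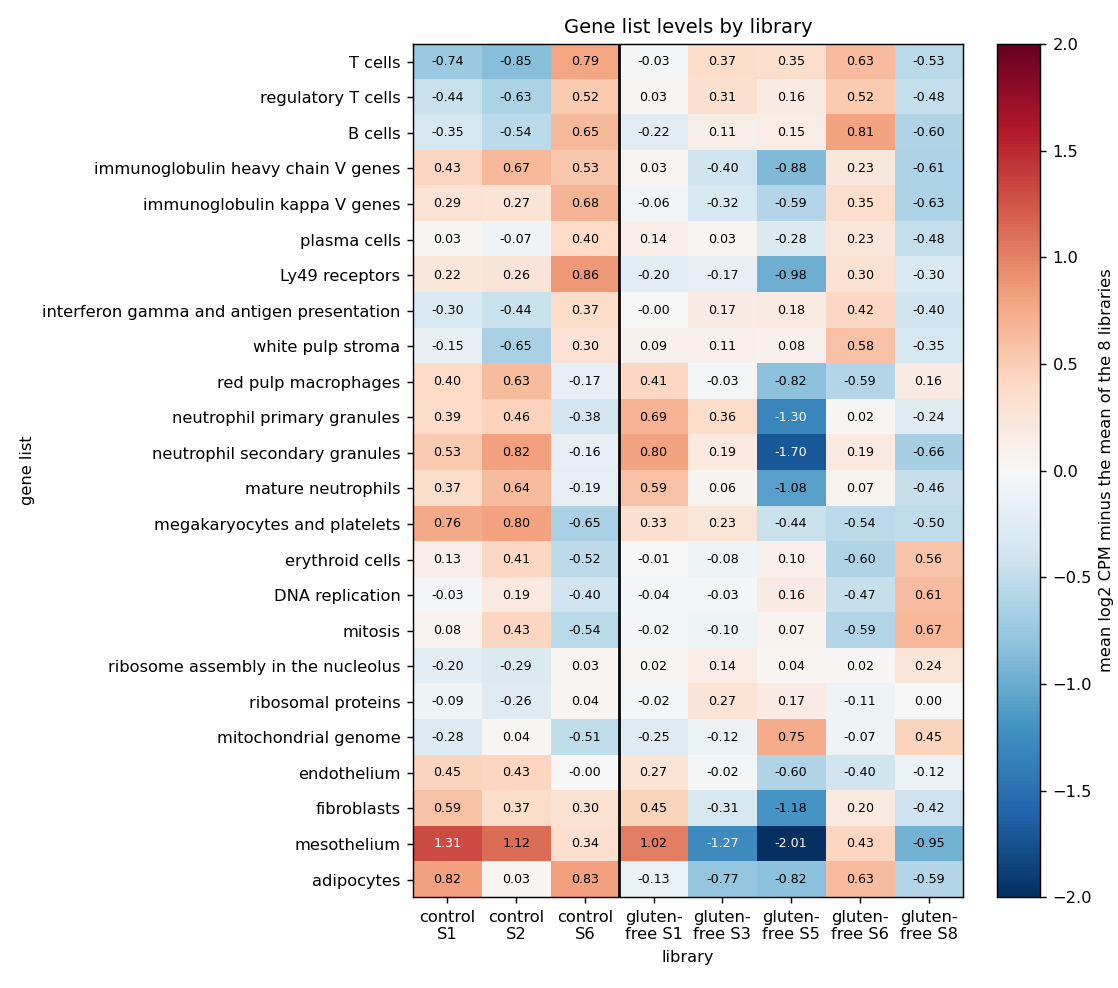
Mean log2 CPM of the members of 24 gene lists in each of the 8 libraries, drawn as the difference from the list's mean over the libraries (colour scale in log2 units, cut at -2 and 2; numbers give the value in each cell). Mesothelial, adipocyte and immunoglobulin V gene rows are low in gluten-free S3, S5 and S8, and T cell and erythroid rows vary in opposite directions within both diets.

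No gene passed the test between gluten-free and control spleens. In edgeR's quasi-likelihood test with Benjamini-Hochberg adjustment, 0 of 18362 genes (0% of those tested) reached an adjusted p under 0.05, and the smallest adjusted p was 0.908. At an unadjusted p under 0.05 there were 959 genes, 276 higher (1.5%) and 683 lower (3.72%) in gluten-free spleens. In 282 genes (1.54%) every gluten-free library lay above every control, and in 386 (2.1%) every one lay below. Without gluten-free S1 the test again called 0 genes (smallest adjusted p 0.522, 1524 genes at an unadjusted p under 0.05), and the counts without overlap were 504 higher (2.74%) and 997 lower (5.43%). The median standard error of a log2 difference was 0.24. Of the other tools run, limma-voom with quality weights called 625 genes, 213 higher and 412 lower, limma-voom without them 0, and DESeq2 4 genes, all lower, of which 3 were the kappa V genes Igkv7-33, Igkv2-109 and Igkv12-38. The groups described next are therefore given by their values and by how often the diets do not overlap, beside those background shares. Counts given without gluten-free S1 stand against the shares of that comparison, 2.74% higher and 5.43% lower.

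Genes of ribosome assembly in the nucleolus were slightly higher in gluten-free spleens. This list was put together after the counts had been read, because several of its members led the genes without overlap, so its counts are a description. Of 53 listed genes, all tested, 53 had a positive log2 difference, 13 lay above the controls in every gluten-free library (background 1.54%) and 0 passed the test; the median log2 difference was 0.23, against 0.01 over all genes. The means of the list's log2 CPM were 5.44, 5.36 and 5.68 in the controls and 5.67, 5.79, 5.69, 5.67 and 5.89 in the gluten-free libraries, so that gluten-free S6 and S1 lay just below control S6. Gnl3, the GTPase nucleostemin, at chr14:31012433-31019152 in GRCm38, measured 50.8, 61.5 and 65.0 CPM in the controls and 72.1, 87.4, 78.9, 70.3 and 100.4 CPM in the gluten-free libraries. The diets did not overlap and the log2 difference was 0.47 ± 0.15 (SE, n = 3 and 5). Ppan, a maturation factor of the large ribosomal subunit, measured 49.5, 35.3 and 55.6 CPM in the controls and 56.3, 74.1, 70.1, 60.6 and 72.7 CPM in the gluten-free libraries, with a log2 difference of 0.51 ± 0.17 and a narrow gap between control S6 and gluten-free S1. Nifk, which binds the proliferation antigen Ki-67 and takes part in ribosomal RNA processing, was at 42.3, 40.3 and 48.6 CPM in the controls and 56.9, 59.8, 54.5, 50.9 and 64.2 CPM in the gluten-free libraries, a log2 difference of 0.39 ± 0.12. Nop56, a core protein of the particles that methylate ribosomal RNA, was at 154, 151 and 169 CPM in the controls and 185, 213, 224, 181 and 252 CPM in the gluten-free libraries, a log2 difference of 0.42 ± 0.14, with all gluten-free values above the highest control. The most abundant members overlapped between diets: Ncl, nucleolin, had a log2 difference of 0.22 ± 0.16, Npm1, nucleophosmin, of 0.30 ± 0.15, and the helicase Ddx21 of 0.22 ± 0.14. Myc, a transcription factor known to drive ribosome assembly genes, measured 33.1, 31.2 and 51.4 CPM in the controls and 56.7, 52.6, 55.2, 41.5 and 57.4 CPM in the gluten-free libraries, and its log2 difference of 0.45 ± 0.18 came with overlap, since gluten-free S6 lay below control S6. Genes of the cytoplasmic ribosome itself differed less: 29 of 30 ribosomal protein genes had a positive difference, with a median of 0.14 and 1 without overlap.

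The promoters of the nucleolar genes were searched for CACGTG, the palindromic E-box that Myc and related factors bind. It was present in 10 of the 45 members matched in the RefSeq table (22.2%), in 4 of the 12 matched members whose diets did not overlap, and in 7.15% of all 32851 promoters. The list is rich in housekeeping genes, and neither promoter base composition nor binding was tested. The 4 windows with the motif among the members without overlap are printed 5′ to 3′ with CACGTG in capitals, and in each the motif begins 15 to 37 bases after the annotated start. Tsr1, Wdr43, Utp4 and Utp20 all act in building the small ribosomal subunit.
Tsr1 (chr11:74897830-74898129, plus strand): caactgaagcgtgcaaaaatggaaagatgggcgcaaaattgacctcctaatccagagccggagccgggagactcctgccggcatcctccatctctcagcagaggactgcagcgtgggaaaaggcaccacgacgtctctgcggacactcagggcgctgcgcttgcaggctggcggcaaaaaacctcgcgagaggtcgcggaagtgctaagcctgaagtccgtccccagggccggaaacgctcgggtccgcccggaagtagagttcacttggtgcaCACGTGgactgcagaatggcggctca
Wdr43 (chr17:71615965-71616264, plus strand): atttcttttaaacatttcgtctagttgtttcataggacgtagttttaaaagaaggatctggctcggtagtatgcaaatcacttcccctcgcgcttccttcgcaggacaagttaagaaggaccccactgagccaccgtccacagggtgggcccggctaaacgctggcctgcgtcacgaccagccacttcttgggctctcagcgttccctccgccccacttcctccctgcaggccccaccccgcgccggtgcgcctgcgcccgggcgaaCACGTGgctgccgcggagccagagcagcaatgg
Utp4 (chr8:106893390-106893689, plus strand): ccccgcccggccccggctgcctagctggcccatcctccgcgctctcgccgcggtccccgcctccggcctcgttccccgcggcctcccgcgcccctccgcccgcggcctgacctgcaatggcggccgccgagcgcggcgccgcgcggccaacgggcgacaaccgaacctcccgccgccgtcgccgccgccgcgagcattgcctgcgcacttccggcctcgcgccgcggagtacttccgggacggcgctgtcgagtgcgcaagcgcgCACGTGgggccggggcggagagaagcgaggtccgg
Utp20 (chr10:88826765-88827064, minus strand): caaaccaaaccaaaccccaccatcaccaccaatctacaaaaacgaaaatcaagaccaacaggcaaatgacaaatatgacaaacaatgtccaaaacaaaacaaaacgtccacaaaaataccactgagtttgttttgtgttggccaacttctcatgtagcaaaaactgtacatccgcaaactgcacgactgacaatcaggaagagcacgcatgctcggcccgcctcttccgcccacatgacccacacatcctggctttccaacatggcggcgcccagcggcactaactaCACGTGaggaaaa
The 4 genes had small differences. Wdr43 measured 48.7, 49.3 and 62.6 CPM in the controls and 64.4, 69.5, 66.0, 69.1 and 75.8 CPM in the gluten-free libraries, a log2 difference of 0.37 ± 0.13, and Utp4 18.7, 23.2 and 27.1 CPM in the controls and 27.9, 33.5, 29.7, 28.9 and 34.2 CPM in the gluten-free libraries, a log2 difference of 0.42 ± 0.15. In Tsr1 the log2 difference was 0.41 ± 0.16 and in Utp20 0.30 ± 0.12.

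**Figure D4:**
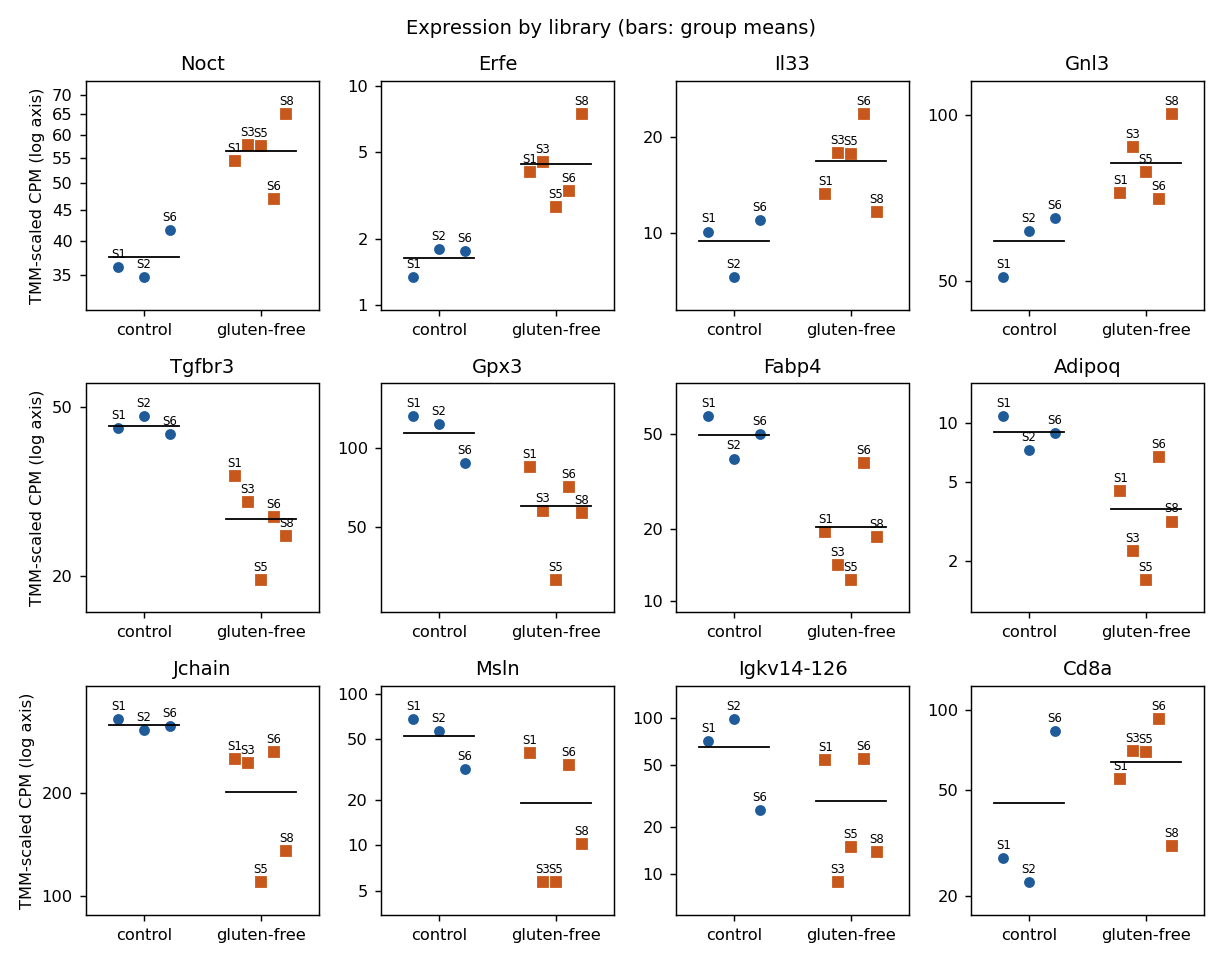
TMM-scaled CPM (log axes) of 12 genes in each library, 1 panel per gene; circles are the 3 controls, squares the 5 gluten-free libraries labelled by ID, and bars the group means. In Noct, Erfe, Il33, Gnl3, Tgfbr3, Gpx3, Fabp4, Adipoq and Jchain the diets do not overlap, while in Msln, Igkv14-126 and Cd8a they do.

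Outside the nucleolus, the protein-coding gene with the smallest p among the higher ones without overlap was Noct, a rhythmically expressed enzyme that acts on nicotinamide cofactors, at chr3:51224447-51251644. It measured 36.2, 34.7 and 41.7 CPM in the controls and 54.3, 57.7, 57.6, 47.0 and 65.2 CPM in the gluten-free libraries, a log2 difference of 0.59 ± 0.13. All 5 gluten-free values lay above the highest control. Erfe, the hormone erythroferrone by which erythroblasts lower hepcidin, was at 1.34, 1.81 and 1.77 CPM in the controls and 4.05, 4.50, 2.80, 3.32 and 7.47 CPM in the gluten-free libraries, with a log2 difference of 1.43 ± 0.35 and the highest value in gluten-free S8. It was 1 of 28 tested erythroid genes, and the only one of them without overlap, while the list's median was -0.01. That median changed sign with the scaling (0.00228 with relative log expression scaling) and ran from -0.25 without control S6 to 0.21 without control S2. Sostdc1, a secreted inhibitor of BMP and Wnt signals, was low in all libraries at 0.350, 0.725 and 0.706 CPM in the controls and 1.17, 2.29, 1.60, 1.64 and 1.21 CPM in the gluten-free libraries, a log2 difference of 1.41 ± 0.39. Col28a1, a collagen of nerve sheaths, was at 1.17, 1.21 and 0.942 CPM in the controls and 1.49, 2.04, 2.97, 3.95 and 2.21 CPM in the gluten-free libraries, a log2 difference of 1.19 ± 0.36; its highest values were in gluten-free S5 and S6. Avpr1a, a vasopressin receptor, had a log2 difference of 1.27 ± 0.40. Mrpl41 and Fastkd2, which serve mitochondrial translation, and Ercc8, of transcription-coupled DNA repair, had differences of 0.38 ± 0.11, 0.53 ± 0.17 and 0.44 ± 0.14.

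White pulp stroma held genes on the higher side. Il33, an alarmin cytokine stored in the nucleus of stromal cells, at chr19:29925114-29960718, measured 10.1, 7.25 and 10.9 CPM in the controls and 13.2, 17.8, 17.6, 23.7 and 11.6 CPM in the gluten-free libraries, so every gluten-free value lay above every control. Its log2 difference was 0.83 ± 0.25, the highest value was in gluten-free S6, and gluten-free S8 was only just above control S6. Thbs4, a matrix thrombospondin, was at 3.44, 3.44 and 10.1 CPM in the controls and 11.9, 18.1, 17.4, 18.1 and 9.31 CPM in the gluten-free libraries, a log2 difference of 1.40 ± 0.39 with overlap through gluten-free S8 alone. Ccl19, the T zone chemokine that binds Ccr7, was near the detection limit at 0.408, 0.181 and 0.765 CPM in the controls and 1.07, 0.899, 0.857, 1.26 and 1.74 CPM in the gluten-free libraries, without overlap, and it has near-identical copies. The white pulp list of 15 genes also holds Cxcl12, and Cr2 and Fcer2a, which are in the list of marginal zone and follicular B cells too. Of the 15 genes, 11 were positive, 2 lay above and 0 below without overlap (2 and 2 without gluten-free S1). The median was 0.25, which ran from 0.064 without control S2 to 0.73 without control S6. The follicular genes overlapped widely: Cxcl13, which attracts B cells, had a log2 difference of 0.18 ± 0.26, and Cr2, complement receptor 2, measured 139.5, 106 and 266 CPM in the controls and 143, 189, 233, 336 and 117 CPM in the gluten-free libraries. Madcam1, the adhesion molecule of the marginal sinus, measured 5.83, 3.56 and 10.5 CPM in the controls and 9.01, 13.04, 12.2, 12.1 and 6.31 CPM in the gluten-free libraries, a log2 difference of 0.67 ± 0.34 with overlap. In contrast Cxcl12, the most abundant gene of the list though made by red pulp stroma, measured 493, 529 and 426 CPM in the controls and 464, 357, 153, 290.5 and 325 CPM in the gluten-free libraries. Its log2 difference was -0.60 ± 0.28. Within both diets, Il33 and Madcam1 were lowest in the libraries with the lowest T cell genes, control S2 and gluten-free S8; the part of lymphoid content in these differences was not tested.

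Fat cell genes were lower in gluten-free spleens. Of 17 tested adipocyte genes, 16 had a negative difference, 6 lay below the controls in every gluten-free library (background 2.1%), none passed the test, and the median was -1.03. Fabp4, the fatty acid binding protein of fat cells, at chr3:10204088-10208576, measured 59.1, 39.4 and 49.7 CPM in the controls and 19.5, 14.1, 12.3, 37.8 and 18.5 CPM in the gluten-free libraries, a log2 difference of -1.27 ± 0.31. Adipoq, the fat cell hormone adiponectin, was at 10.8, 7.25 and 8.89 CPM in the controls and 4.53, 2.25, 1.60, 6.68 and 3.16 CPM in the gluten-free libraries, with a log2 difference of -1.29 ± 0.39. Cfd, the complement protease adipsin, had a log2 difference of -1.07 ± 0.27, and Car3, a carbonic anhydrase of fat, of -1.53 ± 0.40. Gluten-free S6 was closest to the controls in all 4 of these genes. Pnpla2, the triglyceride lipase that many cell types make, differed less, at -0.40 ± 0.11, and Lpl, which macrophages also make, was at 67.1, 52.5 and 62.1 CPM in the controls and 63.9, 58.3, 53.4, 81.9 and 43.5 CPM in the gluten-free libraries. Ces1d, a carboxylesterase of fat and liver, had a log2 difference of -1.62 ± 0.43. Thrsp, a gene of fatty acid synthesis, was at 15.7, 9.30 and 23.2 CPM in the controls and 8.58, 5.76, 4.00, 11.6 and 5.16 CPM in the gluten-free libraries with overlap. The liver genes Alb and Apoa1 had 0 to 4 counts in each library, and the 3 tested members of the liver list, Trf, Serpina1a and Cyp2e1, were negative, with a median of -1.01 and 1 without overlap, Cyp2e1 (2 genes without gluten-free S1); the part of liver RNA was not tested. The share of fat attached to each spleen was not measured, and its part in these differences was not tested.

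Mesothelial and collagen genes were lower in gluten-free S3, S5 and S8 and close to the controls in gluten-free S1 and S6. The RNA came from whole spleen, and the part of the capsule in the collagen values was not tested. All 20 mesothelial genes had a negative difference, with a median of -1.25, and 1 did not overlap; without gluten-free S1 the median was -1.72 and 7 did not overlap (background 5.43%). Upk1b, a tetraspanin of the mesothelial surface, was that gene, at 11.6, 9.72 and 7.48 CPM in the controls and 7.41, 1.39, 0.685, 6.18 and 1.47 CPM in the gluten-free libraries, a log2 difference of -1.48 ± 0.62. Wt1, the transcription factor of mesothelium, measured 19.7, 23.0 and 14.1 CPM in the controls and 16.7, 9.12, 4.34, 10.6 and 8.10 CPM in the gluten-free libraries, a log2 difference of -0.95 ± 0.34 with overlap through gluten-free S1 alone. Muc16, a membrane mucin, had a log2 difference of -1.62 ± 0.65, and Gpm6a, a membrane glycoprotein, of -1.38 ± 0.56. Fibroblast genes had a median of -0.61, with 14 of 15 negative and 1 without overlap; without gluten-free S1 the median was -0.84 and 8 did not overlap. Pdgfrb, the growth factor receptor of pericytes and fibroblasts, measured 85.5, 84.0 and 60.3 CPM in the controls and 57.6, 46.1, 22.7, 47.9 and 42.0 CPM in the gluten-free libraries, a log2 difference of -0.82 ± 0.25. All 16 collagen genes were negative, with a median of -0.50 and 2 without overlap (-0.65 and 5 without gluten-free S1); Col6a3 and Col6a1 did not overlap, at -0.84 ± 0.30 and -0.89 ± 0.35, and the most abundant, Col3a1, measured 599, 498 and 427 CPM in the controls and 544, 257, 139, 417 and 303 CPM in the gluten-free libraries. Gluten-free S5 was the lowest of the 8 libraries in all 3 collagens. Smooth muscle genes had a median of -0.39 with 0 of 12 without overlap (-0.52 and 2 without gluten-free S1). In these lists, leaving out gluten-free S1 gave the most negative median of any single library left out. The range was -1.72 to -0.996 for mesothelium and -0.84 to -0.42 for fibroblasts. It was -0.65 to -0.34 for collagens and -0.52 to -0.26 for smooth muscle.

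Several of the genes with the smallest p-values on the lower side belong to stroma and matrix. Tgfbr3, the coreceptor betaglycan, at chr5:107106570-107289629, measured 44.6, 47.5 and 43.2 CPM in the controls and 34.4, 29.9, 19.6, 27.5 and 24.9 CPM in the gluten-free libraries, a log2 difference of -0.72 ± 0.16, and gluten-free S1 was the nearest to the controls. Adamtsl2, a secreted matrix protein that binds latent TGF-beta, was at 68.8, 59.5 and 45.7 CPM in the controls and 44.6, 29.8, 17.8, 29.2 and 24.8 CPM in the gluten-free libraries, a log2 difference of -0.99 ± 0.25. Tpbg, an oncofetal membrane glycoprotein, had a log2 difference of -1.31 ± 0.31, and Masp1, a protease of the lectin pathway of complement, of -1.66 ± 0.47. Nkx3-2, a transcription factor of the developing spleen, measured 3.91, 2.48 and 3.71 CPM in the controls and 2.24, 1.96, 1.49, 1.51 and 1.68 CPM in the gluten-free libraries, a log2 difference of -0.92 ± 0.26. Dapk1, a death-associated kinase, and Glb1l2, a galactosidase-like enzyme, had differences of -0.65 ± 0.18 and -1.75 ± 0.48. Gpx3, the secreted glutathione peroxidase, was at 132, 123 and 87.9 CPM in the controls and 85.1, 57.5, 31.6, 71.5 and 57.0 CPM in the gluten-free libraries, a log2 difference of -0.92 ± 0.26 without overlap. Endothelial genes were negative in 15 of 15, with a median of -0.44 and 1 without overlap (background 2.1%). Without gluten-free S1 the median was -0.53 (-0.56 to -0.33 with single libraries left out) and 6 did not overlap (background 5.43%). With all libraries that gene was Stab1, a scavenger receptor of sinus endothelium and macrophages, at 31.9, 33.0 and 32.4 CPM in the controls and 28.9, 24.0, 12.9, 13.8 and 25.4 CPM in the gluten-free libraries, a log2 difference of -0.63 ± 0.25. Pecam1, an adhesion molecule of all endothelium, platelets and some leukocytes, measured 109.5, 122 and 133 CPM in the controls and 115, 123, 104, 153 and 91.6 CPM in the gluten-free libraries.

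Leaving out gluten-free S1 widened the gap in stromal genes and added some to those without overlap on the lower side. With fewer libraries, overlap is less likely for any gene, and over all genes the shares without overlap rose on both sides, to 2.74% and 5.43%. Gluten-free S1 also had the highest list mean of the gluten-free libraries in mesothelial, fibroblast and endothelial genes. Slc7a2, a transporter of cationic amino acids, measured 8.81, 12.1 and 12.1 CPM in the controls and 8.69, 3.27, 1.60, 4.62 and 4.42 CPM in the gluten-free libraries, without overlap either way, and its log2 difference went from -1.28 to -1.65. Gata6, a transcription factor of mesothelium and of cavity macrophages, measured 5.83, 6.64 and 4.24 CPM in the controls and 5.12, 1.51, 1.37, 2.61 and 2.53 CPM in the gluten-free libraries, and the difference went from -1.09 to -1.46. Dab2, an endocytic adaptor, went from -1.01 to -1.31, and Efna5, a guidance ligand, from -1.34 to -1.80. Ecm1, Creb3l2 and Ston1 did not overlap either way, and Ccdc8 and Sned1 did not once gluten-free S1 was left out. Alox15, the lipoxygenase of peritoneal macrophages and eosinophils, was at 9.92, 10.8 and 4.00 CPM in the controls and 6.93, 0.777, 0.400, 2.77 and 0.158 CPM in the gluten-free libraries; its log2 difference was -1.90 ± 0.84 with gluten-free S1 and -2.95 ± 0.69 without it, when the diets did not overlap. On the higher side, leaving out gluten-free S1 kept 10 of the 12 named genes and added Sarnp, of messenger RNA export, and the ribosomal protein gene Rpl34, at 9.86, 11.5 and 11.9 CPM in the controls and 12.2, 15.8, 14.7, 15.7 and 16.6 CPM in the gluten-free libraries. On the lower side 3 of the 12 named genes were kept, and Fabp4, Cfd, Ces1d, Car3 and Tpbg were among those no longer within the 12 smallest p-values. None of these genes passed the test in either comparison.

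Immunoglobulin V genes, the segments that encode the variable part of antibodies, were lower in gluten-free spleens. Of 90 heavy chain V genes tested, 83 had a negative difference, with a median of -0.85. In every gluten-free library 22 lay below the controls and 0 above (background 2.1% and 1.54%). Without gluten-free S1, 29 lay below (background 5.43%). Of 70 kappa V genes, 60 were negative, 10 lay below without overlap (15 without gluten-free S1, against the same background shares), and the median was -0.68. Near-identical V segments can share reads, so single genes are uncertain. The mean log2 CPM of the heavy chain V genes was 1.29, 1.53 and 1.40 in the controls and 0.90, 0.47, -0.02, 1.10 and 0.25 in the gluten-free libraries. Gluten-free S5, S8 and S3 were the lowest, in that order, and gluten-free S6 was the nearest to the controls. The V genes with the smallest p were Igkv2-109, at 8.17, 5.80 and 6.06 CPM in the controls and 1.65, 3.11, 1.49, 1.89 and 1.05 CPM in the gluten-free libraries, and Igkv12-38, Igkv7-33 and Ighv1-53, with log2 differences of -1.85 ± 0.32, -1.82 ± 0.36, -1.52 ± 0.32 and -1.05 ± 0.24. The most abundant V gene was Igkv14-126, at 71.9, 99.7 and 25.8 CPM in the controls and 53.9, 8.87, 14.9, 55.0 and 13.8 CPM in the gluten-free libraries, followed by Ighv11-2, at 34.5, 52.2 and 12.8 CPM in the controls and 25.2, 3.52, 5.08, 21.9 and 6.63 CPM in the gluten-free libraries. These segments are known to be paired in B-1a cells that bind phosphatidylcholine. Both were highest in control S2 and lowest in gluten-free S3, S5 and S8, with log2 differences of -1.17 ± 0.61 and -1.41 ± 0.63 and overlap between diets. They were named for their abundance, and the B-1a content of the spleens was not tested. Ighv12-3, among the 7 positive heavy chain V genes, had a log2 difference of 0.71 ± 0.50 with overlap.

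Of 11 tested constant region genes 5 were positive and 6 negative, with a median of -0.32 and 1 without overlap. Jchain, which joins secreted IgM and IgA, measured 331, 306 and 314 CPM in the controls and 253, 245, 110.1, 264 and 136 CPM in the gluten-free libraries, a log2 difference of -0.65 ± 0.27 without overlap. Igkc, the kappa constant region, was at 1513, 1509.6 and 1727 CPM in the controls and 1264, 1291, 819, 1509 and 653 CPM in the gluten-free libraries, a log2 difference of -0.52 ± 0.25 without overlap, though gluten-free S6 came close to control S2. Ighm, the constant region of IgM, had a log2 difference of -0.55 ± 0.26 with overlap through gluten-free S6, and Ighg1, of IgG1, of -1.66 ± 0.51 with overlap through gluten-free S3. Ighd, the IgD constant region of naive B cells, measured 222, 181 and 417 CPM in the controls and 235, 327, 294, 529 and 165 CPM in the gluten-free libraries, so control S6 and gluten-free S6 were highest. The B cell list was positive in 14 of 16 genes with a median of 0.13 and 0 genes without overlap, and the median changed sign with single libraries left out, from -0.14 without gluten-free S6 to 0.56 without control S6. In the plasma cell list of 15 genes the median was -0.14, which ran from -0.28 without gluten-free S6 to 0.0069 without control S6, and Jchain alone did not overlap (2 genes without gluten-free S1). Prdm1, a transcription factor of plasma cells, had a log2 difference of -0.42 ± 0.23.

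T cell genes overlapped between diets. Of 22 T cell genes 20 were positive, with a median of 0.28, and 0 were without overlap; with single libraries left out the median ran from 0.019 without control S2 to 1.03 without control S6. Cd8a, the coreceptor of cytotoxic T cells, measured 27.7, 22.5 and 83.5 CPM in the controls and 55.3, 70.4, 69.8, 93.1 and 30.7 CPM in the gluten-free libraries, a log2 difference of 0.52 ± 0.44. Control S6 was below gluten-free S6 only, and gluten-free S8 was near the other controls. Foxp3, the transcription factor of regulatory T cells, was at 4.49, 3.50 and 17.5 CPM in the controls and 8.58, 11.5, 9.31, 12.9 and 5.10 CPM in the gluten-free libraries; the log2 difference was 0.16 (95% interval -0.91 to 1.23), and control S6 held the highest value of the 8. The list of regulatory T cell genes had a median of 0.27, which ran from -0.044 without control S2 to 0.93 without control S6, and 0 of 15 without overlap (1 below without gluten-free S1). The list of natural killer and cytotoxic genes was negative in 17 of 26, with a median of -0.29. Without overlap, 2 lay below the controls (background 2.1%), and 6 without gluten-free S1 (background 5.43%). Its median ran from -0.41 without control S1 to 0.00092 without control S6. All 11 tested Ly49 receptor genes, which encode receptors for MHC class I on natural killer cells, were negative, with a median of -0.73, and 3 did not overlap. These were Klra2, Klra6 and Klra9, each under 1 CPM in every library, with log2 differences of -2.09 ± 0.69, -1.42 ± 0.53 and -1.06 ± 0.48. Ly49 genes are near-identical copies and can share reads. Klrc1, the receptor chain NKG2A, measured 2.39, 3.02 and 2.06 CPM in the controls and 1.12, 1.92, 1.20, 1.26 and 1.53 CPM in the gluten-free libraries, a log2 difference of -0.82 ± 0.28 without overlap, and Gzma, the protease granzyme A, had -0.74 ± 0.30 with overlap. Klrk1, which encodes the activating receptor NKG2D, measured 7.70, 9.54 and 14.3 CPM in the controls and 9.27, 7.81, 4.51, 10.4 and 6.84 CPM in the gluten-free libraries, a log2 difference of -0.43 ± 0.28.

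Macrophage, neutrophil and platelet genes were lower on average and overlapped between diets. Red pulp macrophage genes were negative in 15 of 16, with a median of -0.46 and 0 without overlap (2 below without gluten-free S1, background 5.43%). Spic, a transcription factor these cells need, measured 65.0, 80.6 and 38.4 CPM in the controls and 54.1, 46.9, 29.6, 36.8 and 49.8 CPM in the gluten-free libraries, a log2 difference of -0.50 ± 0.25, and Hmox1, which breaks down haem, had -0.61 ± 0.35. Megakaryocyte and platelet genes were negative in 21 of 21, with a median of -0.60 and 0 without overlap; Pf4, platelet factor 4, measured 664, 626 and 213 CPM in the controls and 479, 462, 341, 245 and 256 CPM in the gluten-free libraries, and control S1 and S2 were the 2 highest. Its log2 difference was -0.49 ± 0.35. Neutrophil genes of the primary granules, secondary granules and mature stage had medians of -0.14, -0.51 and -0.45, and without gluten-free S1 of -0.38, -0.83 and -0.69. With single libraries left out, the primary granule median changed sign, running from -0.41 to 0.068. Those of the secondary granules and mature stage stayed negative, from -0.83 to -0.27 and from -0.71 to -0.25. Mpo, the peroxidase of primary granules, was at 192, 165 and 94.7 CPM in the controls and 227, 151, 35.4, 120.3 and 83.0 CPM in the gluten-free libraries; gluten-free S1 was the highest and gluten-free S5 the lowest of all 8. S100a9, a calcium-binding protein of mature neutrophils, was likewise lowest in gluten-free S5, at 185 CPM, and highest in control S2, at 908 CPM.

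Red cell and dividing cell genes did not separate the diets. Hba-a1, an alpha globin, measured 103306, 88872 and 47048 CPM in the controls and 75404, 72683, 79925, 50324 and 67674 CPM in the gluten-free libraries, and Alas2, the first enzyme of haem synthesis in red cells, was at 2590.2, 3466 and 1359.7 CPM in the controls and 2175, 1919.9, 2149, 1283 and 3088 CPM in the gluten-free libraries. In both genes the S6 libraries were lowest in their diets. DNA replication genes were positive in 23 of 24, with a median of 0.15, which ran from -0.019 without gluten-free S8 to 0.31 without control S2, and 0 without overlap. Pcna, the sliding clamp of DNA polymerase, measured 442, 558 and 348 CPM in the controls and 478, 469, 546, 316 and 765 CPM in the gluten-free libraries, and gluten-free S8 was the highest and gluten-free S6 the lowest of the 8. Mitosis genes had a median of 0.01, which turned negative with upper quartile scaling (-0.00764) and ran from -0.19 without control S6 to 0.29 without control S2. The list means of erythroid genes, DNA replication and mitosis put gluten-free S8 highest and gluten-free S6 lowest of the 8 libraries.

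Mitochondrial transcripts were higher in 2 gluten-free libraries. All 14 tested genes of the mitochondrial genome had a positive difference, with a median of 0.44, and 0 were without overlap (2 above without gluten-free S1). mt-Co1, a subunit of cytochrome oxidase, measured 6836, 9728 and 6711 CPM in the controls and 7680.3, 8284, 15466, 9626 and 14824 CPM in the gluten-free libraries, with gluten-free S5 and S8 far above the rest. Mitochondrial counts made up 4.15% of gluten-free S5 and 3.52% of gluten-free S8 against 1.92 to 2.92% of the other 6 libraries, and the mean share of 3.07% ± 0.777 (SD, n = 5) against 2.23% ± 0.299 (SD, n = 3) gave p = 0.179 in the exact two-sided permutation test (adjusted 0.447). Nuclear genes of oxidative phosphorylation had a median of 0.10. The same 2 libraries were among the 3 lowest in mesothelial and heavy chain V genes; the part of this share in those results was not tested.

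Cytokine and interferon genes mostly overlapped. The list of interferon gamma and antigen presentation genes was positive in 23 of 28, with a median of 0.12, which ran from 0.033 without control S2 to 0.51 without control S6, and 0 without overlap. Cxcl9, the interferon gamma-induced chemokine for Cxcr3, measured 15.1, 11.2 and 29.1 CPM in the controls and 24.1, 34.4, 39.1, 38.1 and 20.7 CPM in the gluten-free libraries, a log2 difference of 0.76 ± 0.32. Control S6 lay among the gluten-free values. Cxcl16, a membrane-bound chemokine, had a log2 difference of 0.29 ± 0.18. Oasl1, an interferon-induced regulator, was the 1 gene of 24 type I interferon genes without overlap, at 4.55, 3.81 and 4.89 CPM in the controls and 5.01, 5.89, 6.11, 7.61 and 5.68 CPM in the gluten-free libraries. Lyz1, the lysozyme of Paneth cells that also occurs in spleen, measured 9.22, 7.43 and 18.7 CPM in the controls and 13.9, 19.1, 20.3, 25.8 and 12.2 CPM in the gluten-free libraries, a log2 difference of 0.63 ± 0.33, and Lyz2, the macrophage lysozyme, had 0.19 ± 0.17; the 2 genes are near-identical and can share reads. Tnf had a log2 difference of 0.24 (95% interval -0.62 to 1.09). Il10 and Ifng were at or below 1.19 CPM in every library, and the 95% interval of the log2 difference of Ifng was -1.09 to 2.39, so that a several-fold difference was not resolved in these libraries. Tgm2, the transglutaminase targeted by coeliac autoantibodies, measured 56.7, 64.4 and 56.7 CPM in the controls and 62.3, 56.5, 48.0, 49.0 and 68.8 CPM in the gluten-free libraries, and the 95% interval of its log2 difference was -0.38 to 0.26. Rgs1, a brake on chemokine signalling in B cells, had a log2 difference of 0.73 ± 0.27 with overlap. Of 25 coeliac disease associated genes, 1 lay below the controls without overlap, the phosphatase gene Ptprk, with a log2 difference of -0.48 ± 0.23. Gut homing genes had 0 of 11 without overlap.

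For some genes, near-identical copies make the counts uncertain. Rpl30, a ribosomal protein gene with many processed copies, measured 17.5, 13.3 and 18.8 CPM in the controls and 46.3, 25.0, 24.8, 71.6 and 19.1 CPM in the gluten-free libraries, and Gapdh, a glycolytic enzyme gene with many pseudogenes, was at 19.3, 3.56 and 7.06 CPM in the controls and 68.3, 9.77, 7.43, 8.95 and 5.52 CPM in the gluten-free libraries, far below the usual level of that enzyme's RNA. How reads with several positions were counted is not given in the sources used here, and values of these genes are uncertain.

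The diet difference among the S IDs was not that among the plain-number IDs. Tested as the difference between the 2 diet differences over all 20 libraries, 4545 of 18362 genes passed, 2825 more positive (15.4%) and 1720 more negative (9.37%) among the S IDs. Scaling by library totals alone moved the median over all genes from -0.02 to -0.30, and the split was then 1294 more positive and 2650 more negative, so directions here are relative to the median gene. Erythroid genes were more positive among the S IDs in 22 of 28 (20 with library totals), DNA replication genes in 24 of 24 (23) and mitosis genes in 20 of 22 (17). Ccne1, the cyclin that starts DNA replication, measured 126, 134 and 112 CPM in the controls and 128, 138, 177, 98.6 and 213 CPM in the gluten-free libraries among the S IDs, had a log2 difference of -1.56 among the plain-number IDs, an interaction of 1.85 ± 0.27 (SE) with an adjusted p of 0.00163 in edgeR's test. Tfr2, a transferrin receptor of erythroblasts and liver, had an interaction of 1.67 ± 0.25, the chloride channel gene Clcn2 of 2.00 ± 0.27, Erfe of 3.50 ± 0.50 and Noct of 1.54 ± 0.22. Eef1e1, of the aminoacyl-tRNA synthetase complex, the phosphatase regulator Ppp1r8, the lipid-binding Sec14l2, the folate enzyme Fpgs and Ccnb1ip1, a cyclin-interacting protein, complete the 10 smallest p-values of protein-coding genes, with interactions of 1.37 ± 0.18, 0.92 ± 0.14, 1.89 ± 0.28, 0.88 ± 0.13 and 2.05 ± 0.31. Nucleolar genes were more positive in 34 of 53, or 9 with library totals. Their median was 0.23 among the S IDs and -0.29 among the plain-number IDs. That list was put together from the S libraries, which also enter this test. Its selection favoured a positive interaction, so its count is a description only.

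**Figure D5:**
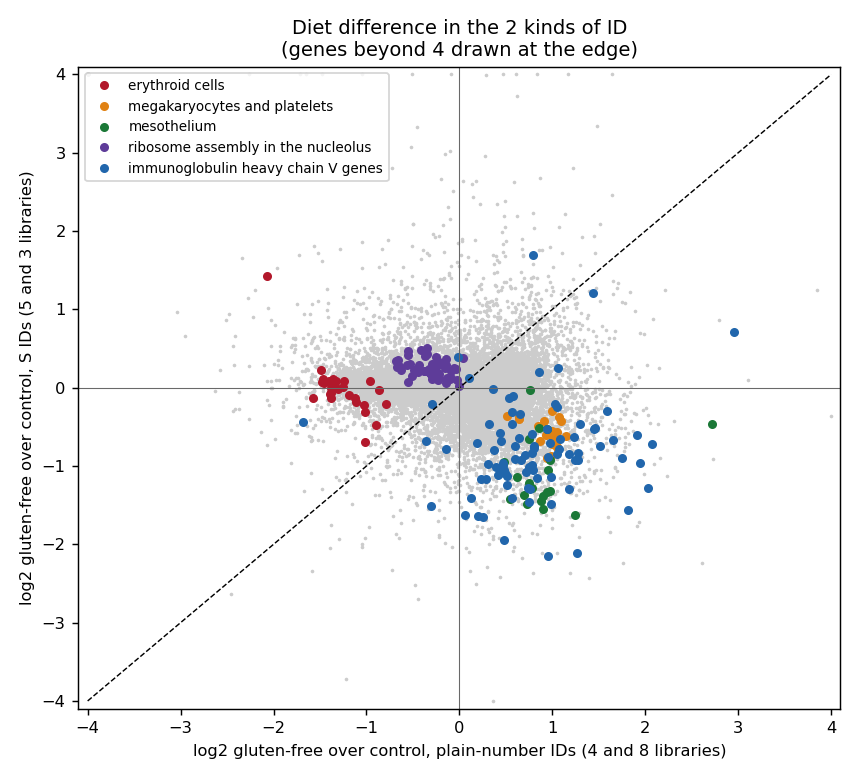
Log2 difference between diets among the S IDs (vertical axis) against that among the plain-number IDs (horizontal axis), 1 point per tested gene in grey, with members of 5 gene lists in colour; the dashed line marks equal differences. Most erythroid genes lie left of 0 and most heavy chain V, megakaryocyte and mesothelial genes right of 0 on the horizontal axis, while on the vertical axis erythroid genes lie near 0 and most of the other 3 lists below it.

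On the more negative side, 20 of 21 megakaryocyte and platelet genes, 15 of 20 mesothelial genes and 11 of 15 fibroblast genes passed, against 9.37% of all genes; with library totals these were 21, 17 and 14. Heavy chain V genes passed in 51 of 90 (54 with library totals), with a median of -0.85 among the S IDs and 0.74 among the plain-number IDs. Neutrophil genes of the secondary granules passed in 11 of 14 (13 with library totals); Ltf had a log2 difference of -0.51 ± 0.46 among the S IDs and 1.78 among the plain-number IDs. Among protein-coding genes, the smallest p-values on this side belonged to Bin2, a membrane-bending protein of blood cells, Exoc3l4, of the exocyst family, and Abca8a, a lipid transporter, with interactions of -1.08 ± 0.16, -0.98 ± 0.15 and -1.78 ± 0.28. Prelp, a matrix proteoglycan, had -1.66 ± 0.26, and Actn1, the crosslinker alpha-actinin 1, -1.22 ± 0.21. Fam217b, Cap1, Fyb and Slain2 followed, with -1.56 ± 0.26, -0.85 ± 0.14, -1.05 ± 0.18 and -0.98 ± 0.17. Il33 was not among the called genes: its log2 difference was 0.83 among the S IDs and 0.88 among the plain-number IDs, an interaction of -0.04 ± 0.35 with an adjusted p of 0.945 in edgeR's test. T cell genes passed in 1 of 22, with medians of 0.28 and 0.70. The labels do not say what separates the 2 kinds of ID, and litter, cage or processing day cannot be told apart from it.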

How the data were processed

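RNA of 20 whole spleens was sequenced, and 1 table of raw counts per gene was used. The deposited counts were made by the authors with CASAVA, HISAT2 2.0.5 and featureCounts 1.5.0 against GRCm38/mm10, per the submitters' processing notes. How multi-mapping reads and strand were treated is not given in the sources used here, so copies, overlapping genes and antisense genes can share reads. The S libraries held 15235671 to 24268237 counts.

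Groups and IDs were taken from the sample titles. Genes passing edgeR's filterByExpr over 20 libraries in 4 groups were kept: 18362 of the 54532 in the file. The diet test was edgeR 4.0.16 (R 4.3.3), quasi-likelihood, TMM scaling, 5 gluten-free against 3 control libraries, two-sided, with Benjamini-Hochberg adjustment and a threshold of 0.05. The test of the difference between ID forms used all 20 libraries. Log2 CPM used a prior count of 2. The code was tested on simulated data. Alternatives used other scalings, filters and covariates, limma 3.58.1, DESeq2 1.42.0, and leaving out libraries; 3 of them were added after the data were seen.

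Members and gene lists were chosen with earlier results of these data known, so they were described by counts and medians without a set test. The rule for named genes took the 12 smallest p-values in each direction among protein-coding genes that averaged 1 CPM or more and did not overlap between diets, with and without gluten-free S1; the 10 smallest p-values in each direction of the interaction; up to 4 members of a list by p and 4 by CPM; and 13 fixed genes. The rule also took the genes of single libraries farthest above and below the median of the others, and those with the largest SD within a diet. Alox15 was among the genes named for extreme values in single libraries. V genes were named by the list rule. Outside the rule, Adipoq was taken as a defining marker and Tsr1, Utp4 and Utp20 for their promoters, after their values were seen. Some genes that the rule names are not reported here. A symbol on several rows was taken from the row with the most counts. Promoters came from RefSeq, build GRCm38.p6.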

Additional observations from a re-analysis of the deposited data

Results flagged for a closer look

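Among 159 sets of 5 gluten-free values, 7 held 1 library far from the other 4 by Dixon's criterion for 5 samples (gap over range above 0.71), where chance gives about 1 in 20. Gluten-free S1 stood apart in its acinar share, 1.52% of counts, in the mean log2 CPM of the acinar list, 8.81, and in Efna5, 2.77 CPM. Fabp4 in gluten-free S6 was at 37.8 CPM, Ddx21 in gluten-free S8 at 179 CPM and Ifng in gluten-free S3 at 1.19 CPM. Cholesterol synthesis genes in gluten-free S5 had a mean log2 CPM of 4.09.

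The insulin genes did not enter the tests because they were below the count filter. Ins1 had 47 and Ins2 267 counts in gluten-free S1 and both had 0 in the other 7 libraries.

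The diet difference among the S IDs differed from that among the plain-number IDs in 4545 of 18362 genes (edgeR's quasi-likelihood test of the interaction, adjusted p under 0.05). Of 101 named genes, 68 were among them. Many of these were named for their diet difference in the S libraries, which also enter the interaction. That selection favoured an interaction in the same direction, so the share of named genes is a description only. The interaction, in log2 units with the S IDs minus the plain-number IDs, was positive in these genes, some of which were named for their small interaction p: Erfe 3.50, Ccnb1ip1 2.05, Clcn2 2.00, Sec14l2 1.89, Ccne1 1.85, Tfr2 1.67, Noct 1.54, Eef1e1 1.37, Gnl3 1.03, Nop56 0.98, Ppp1r8 0.92 and Fpgs 0.88. Next came Ppan 0.87, Ercc8 0.86, Ncl 0.86, Npm1 0.84, Mrpl41 0.84, Fastkd2 0.78, Utp4 0.78, Tsr1 0.78, Nifk 0.65, Ddx21 0.60, Wdr43 0.52 and Utp20 0.45. It was negative in these: Alox15 -3.19, Muc16 -2.86, Ighg1 -2.83, Klra2 -2.66, Glb1l2 -2.63, Ces1d -2.56, Igkv12-38 -2.40, Ltf -2.29, Efna5 -2.29, Gpm6a -2.28, Upk1b -2.21 and Masp1 -2.08. Next came Tpbg -1.95, Ighv1-53 -1.83, Abca8a -1.78, Slc7a2 -1.76, Klra6 -1.75, Igkv7-33 -1.73, Prelp -1.66, Gpx3 -1.60, Col6a1 -1.60, Fam217b -1.56, Wt1 -1.43 and Dab2 -1.41. Next came Pdgfrb -1.40, Jchain -1.40, Gata6 -1.35, Adamtsl2 -1.33, Pf4 -1.33, Ighm -1.23, Actn1 -1.22, Igkc -1.19, Dapk1 -1.11, Col6a3 -1.10, Bin2 -1.08 and Fyb -1.05. Next came Exoc3l4 -0.98, Slain2 -0.98, Klrc1 -0.96, Tgfbr3 -0.96, Lyz2 -0.88, Cap1 -0.85, Prdm1 -0.76 and Ptprk -0.69. These directions are relative to the median gene, which moved from -0.02 to -0.30 with library totals.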

How the results depend on the processing

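Of 29 alternatives for the comparison between diets, 26 called 0 genes, among them each library left out in turn, gluten-free S1 and control S6 left out together, and the 3 added after the data were seen. Genes at an unadjusted p under 0.05 then ranged from 440 without control S1 to 2350 without gluten-free S1 and control S6. DESeq2 called 4 genes and limma-voom with quality weights 625 (213 higher, 412 lower); the cause was not tested. The fit with a replicate block by ID number called 96 (54 higher, 42 lower). Only 2 numbers, S1 and S6, are shared by the diets, and the block left 1 residual degree of freedom. Deviations from the group means correlated across genes outside the acinar list by 0.123 for the S1 libraries and 0.384 for the S6 libraries. They also correlated by 0.363 for control S2 and gluten-free S8, so the numbers were not taken to pair the libraries. The interaction count of 4545 ranged from 3273 to 5418 when single S libraries were left out and was 4530 to 5173 with relative log expression scaling, a filter at 1 CPM, DESeq2 and limma-voom, and 3944 with library totals. The sign of the log2 difference turned with T cell gene level as a covariate, where Cxcl13 was at -0.10, Foxp3 was at -0.074, Tnf was at -0.068 and Tgm2 was at 0.012. It also turned with the replicate block, where Igkv14-126 was at 0.32, Ighv11-2 was at 0.13, Ifng was at -0.62 and Ltf was at 0.27. Leaving out single libraries turned the sign within these ranges: Foxp3 from -0.20 to 1.25, Tnf from -0.032 to 0.80, Ifng from -0.10 to 1.62, Tgm2 from -0.12 to 0.014 and Il33 (interaction) from -0.20 to 0.071. Of 828 list medians recomputed, 820 moved by less than the spread between libraries. The limit was the larger SD of the list means within a diet, which leaving out a single library can hardly exceed. That count is therefore not evidence of stability. The sign turned with single libraries left out in several lists, among them B cells (-0.14 to 0.56) and regulatory T cells (-0.044 to 0.93). With 3 controls and a median standard error of 0.24, small differences of single genes are not resolved. Large ones did not pass either, since the smallest adjusted p in edgeR's test was 0.908.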

Other observations

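Several groups outside the comparisons above are given as values. Imprinted growth genes had 12 of 13 negative log2 differences and a median log2 difference of -0.38, with 0 below without overlap (2 without gluten-free S1). Meg3, a maternally expressed long noncoding RNA, measured 23.3, 17.5 and 11.7 CPM in the controls and 14.8, 7.56, 4.63, 13.4 and 6.15 CPM in the gluten-free libraries, highest in control S1 and lowest in gluten-free S5. Mast cell, basophil and eosinophil genes were negative in 13 of 15, with a median of -0.50 and 1 below the controls without overlap (3 without gluten-free S1).

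Clock genes showed no common direction, with 8 of 19 positive and 0 above and 0 below the controls without overlap. Clock, the core activator of the circadian loop, measured 22.1, 27.4 and 27.8 CPM in the controls and 23.0, 17.2, 17.3, 22.9 and 18.1 CPM in the gluten-free libraries, and Per2, a repressor in the same loop, 6.77, 6.89 and 9.42 CPM in the controls and 9.86, 10.1, 10.3, 10.0 and 8.63 CPM in the gluten-free libraries. The time of day of collection is not given in the sources used here. Glucocorticoid-responsive genes had a median of 0.10, with 0 above and 0 below the controls without overlap (1 below without gluten-free S1). Unfolded protein response genes had a median of -0.04, with 0 above and 0 below the controls without overlap (1 below without gluten-free S1).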
